A study of Mus musculus with 10 samples.

Results

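Of 5327 regions of changed chromatin accessibility in the authors' deposited list, 69 lay nearest to a gene of 8 ubiquitin ligase and deubiquitinase families. A region was included when the nearest protein-coding gene body of the mouse RefSeq annotation (GRCm38) to its 500 bp bin had a symbol starting Trim, Rnf, Fbxo, Fbxl, Fbxw, Asb, Klhl or Usp followed by a number. The rule uses position and symbol, not values, but the families were picked with earlier results of these data known, and every listed region had already been selected by the authors for its difference between the same libraries. The 69 regions fell at 49 of the 340 genes of these families in the annotation. Nearest is a matter of position, and which gene a region acts on was not measured.

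Ubiquitin is a small protein that is joined to other proteins by a chain of an activating enzyme, a conjugating enzyme and a ligase, and a ligase chooses the target. Trim and Rnf proteins carry a RING domain that binds the conjugating enzyme. Fbxo, Fbxl and Fbxw proteins bring targets to ligases built on the scaffold Cul1, Klhl proteins to those built on Cul3, and Asb proteins to those built on Cul5. Usp proteins remove ubiquitin. In heart and skeletal muscle, ligases of these families turn over sarcomere proteins, and atrogin-1 (Fbxo32) and MuRF1 (Trim63) are the ones best known from muscle wasting. Some symbols that match are not ubiquitin enzymes: Usp6nl is a GTPase-activating protein for Rab proteins, and Rnf212 is a meiotic factor linked to SUMO.

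ATAC-seq, which reads where a transposase can reach the DNA, was done on atrial nuclei of mice aged 8 to 12 weeks. There were 4 animals of the genotype Prrx1(R1A)-/- and 4 whose genotype is given only as control. Controls 1 and 3 each had a repeat library, so there were 10 libraries, 6 control and 4 Prrx1(R1A)-/-, and repeats were summed per animal. Left and right atria were combined per mouse, and nuclei stained for PCM1, which marks cardiomyocyte nuclei, were sorted. By the series title, the study is about a noncoding region that controls Prrx1, which encodes a homeodomain transcription factor; the labels do not state where the R1A allele begins and ends, the strain or the sex.

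Levels below are read counts in a region's 500 bp bin, scaled between animals as described under the processing, and are called scaled counts. As a check of the labels, both listed regions nearest to Prrx1 were far lower in all mutants. The region at chr1:163327001-163328000 had 42.3, 49.2, 49.9 and 49.3 scaled counts in controls 1 to 4, and 2.29, 0, 0 and 2.9 in Prrx1(R1A)-/- animals 1 to 4. A library held between 151976 and 521778 reads in listed bins, a figure that leaves out the rest of its reads. The repeat libraries differed from each other by a median of 0.316 (control 1) and 0.197 (control 3) on the log2 scale over the 69 regions. In nuclei in bulk, fewer nuclei with an open site and less opening per nucleus cannot be told apart.

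Of the 58 member regions whose gene has an entry in the promoter table, 3 lay over the RefSeq promoter window of that gene (5.17%, against 3.82% of the 4134 listed regions with such an entry), which runs from 250 bases before to 50 after the start site. They were at the muscle genes Asb2, Klhl41 and Trim54. A further region, nearest to Usp3, covered the window of the neighbouring gene Fbxl22, an F-box gene of heart and skeletal muscle. Their windows are printed because they are the places where a changed bin reached the promoter window of a family gene; the Klhl41 bin ends 0.12 kb before the start site. They come from RefSeq on GRCm38.p6, 5′ to 3′ on the gene's strand, and capitals mark the letters discussed after them.
Asb2, chr12:103338341-103338640 (- strand): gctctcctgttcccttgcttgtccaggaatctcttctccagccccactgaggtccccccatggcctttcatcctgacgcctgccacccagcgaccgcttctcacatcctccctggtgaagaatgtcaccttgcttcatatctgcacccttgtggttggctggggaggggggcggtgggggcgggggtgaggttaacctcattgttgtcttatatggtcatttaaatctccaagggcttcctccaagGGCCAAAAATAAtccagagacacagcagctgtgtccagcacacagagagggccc
Klhl41, chr2:69669870-69670169 (+ strand): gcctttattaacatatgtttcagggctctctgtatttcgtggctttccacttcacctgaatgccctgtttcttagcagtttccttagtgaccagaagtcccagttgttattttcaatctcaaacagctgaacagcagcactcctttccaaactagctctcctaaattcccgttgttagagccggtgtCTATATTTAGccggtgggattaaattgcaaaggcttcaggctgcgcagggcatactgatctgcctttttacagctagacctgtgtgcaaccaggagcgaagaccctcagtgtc
Trim54, chr5:31116362-31116661 (+ strand): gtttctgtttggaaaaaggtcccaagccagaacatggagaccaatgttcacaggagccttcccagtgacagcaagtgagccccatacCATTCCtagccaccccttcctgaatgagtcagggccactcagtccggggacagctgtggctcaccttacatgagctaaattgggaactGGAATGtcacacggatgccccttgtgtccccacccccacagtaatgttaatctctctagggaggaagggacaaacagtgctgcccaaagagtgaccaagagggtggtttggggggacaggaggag
Fbxl22, chr9:66514544-66514843 (- strand): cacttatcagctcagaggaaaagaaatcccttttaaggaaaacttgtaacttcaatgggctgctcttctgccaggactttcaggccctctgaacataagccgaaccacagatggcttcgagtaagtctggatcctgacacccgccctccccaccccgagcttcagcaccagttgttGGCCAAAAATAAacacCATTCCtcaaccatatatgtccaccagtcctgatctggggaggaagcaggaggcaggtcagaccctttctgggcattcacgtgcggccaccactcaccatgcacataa
The bin covered all 300 bases of the Asb2, Trim54 and Fbxl22 windows and 131 of the Klhl41 window. Accessibility over the Asb2 and Fbxl22 windows was lower in Prrx1(R1A)-/- atria, and over the Trim54 and Klhl41 windows it was higher; the values per animal follow under each gene. The searched motifs, on both strands, were TAATTA for homeodomain proteins, GTAAACA for forkhead proteins, ACANNNTGT for the glucocorticoid receptor, CATTCC for TEAD factors, AGATAA for the GATA family, and the MEF2 motif. Klhl41 held CTATATTTAG, a match to the MEF2 motif, 63 bases before its start site, outside the listed bin. Trim54 held CATTCC 163 bases before its start site and, on the other strand (GGAATG), 75 bases before. Fbxl22 held CATTCC 58 bases before its start site. Among 32851 promoter windows of the same length, 3.69% held the MEF2 motif and 14.7% held CATTCC. The other shares were 5.29% for TAATTA, 3.65% for GTAAACA, 6.85% for ACANNNTGT and 11.2% for AGATAA, and none of these was in the 4 windows. Both windows with lower accessibility shared the run GGCCAAAAATAA, which starts 4 bases before the Asb2 start site and 74 before that of Fbxl22. It is the longest run that they share, looked for after the windows had been read. Of the 32851 windows 5 hold it (0.0152%), those of Asb2 and Fbxl22 included, so this share is no test. How often other pairs of windows share a run of such length was not tested.

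Accessibility was higher in the Prrx1(R1A)-/- animals at 44 of the 69 regions and lower at 25, by the authors' deposited signs. Over the whole list 66.7% of regions were higher and 33.3% lower, and over the ubiquitin families 63.8% and 36.2%, so the direction was split much as in the list at large. The families also took an ordinary share of the list: 14.4% of their genes had a listed region, and 14.4% of all protein-coding genes did. The F-box genes of the Fbxo family had 9 higher regions and 1 lower, at 7 genes. The Klhl family had 7 higher and 2 lower at 8 genes, the Rnf family 11 and 7 at 14 genes, and the Usp family 7 and 6 at 8 genes. The Trim family had 6 higher and 5 lower at 7 genes, and the Asb family 2 higher and 3 lower at 2 genes. Fbxw genes had 1 of each direction.

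**Figure D1:**
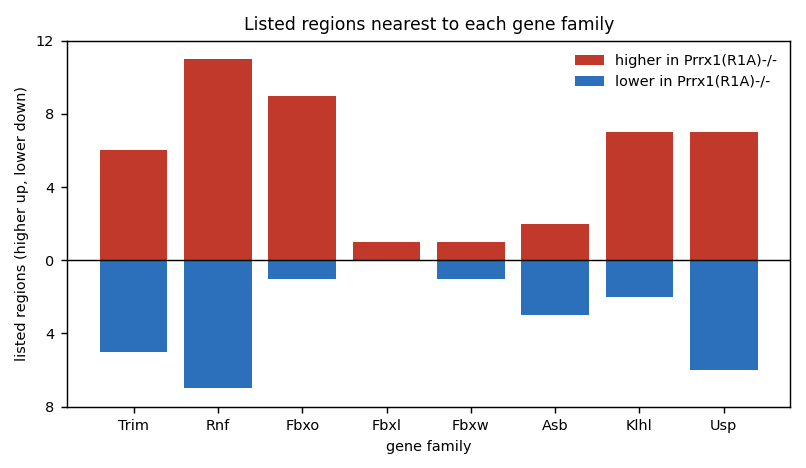
Listed regions per family, with regions higher in Prrx1(R1A)-/- and regions lower counted separately. Fbxo had 9 higher and 1 lower, Rnf had 11 and 7, and Asb was the one family of 2 or more genes with more lower regions (3) than higher (2).

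The sizes were also close to those of the list. In the edgeR quasi-likelihood fit over the whole table, the member regions that were higher had a median log2 fold change of 1.10 (all listed regions 1.00), and those that were lower had -1.04 (all -0.98). The median higher region went from 37.1 to 75.9 scaled counts and the median lower region from 48.9 to 25.5. The 4 animals of each genotype did not overlap at 42 higher and 22 lower member regions, where over the whole list 60.4% of regions were separated upwards and 29.6% downwards (90.0% in either direction). Read within a direction, 90.6% of all listed higher regions and 88.8% of all listed lower ones were separated. The groups overlapped at 5: Asb4 region 2, Fbxw26, Klhl1, Klhl41 and Rnf32 region 2. On the authors' scale edgeR called all 69, 44 higher and 25 lower, and also all 5326 regions it tested (66.7% higher and 33.3% lower), so its adjusted p-values grade regions the authors had already chosen and add no independent evidence. TMM scaling assumes that most regions do not change, and it moved the log2 values down by a median of 0.60. With it, 17 of the 44 higher regions were called (38.6%, against 27.8% of all listed higher regions). Of the whole list, 18.5% was called higher and 33.3% lower. All 25 lower member regions were called too. Over the whole list 1776 regions were called lower, as many as the 1776 listed lower, so this was not particular to the members. Numbered regions of a gene are in order of coordinate, and adjusted p-values below are from edgeR with Benjamini-Hochberg adjustment over the whole table.

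**Figure D2:**
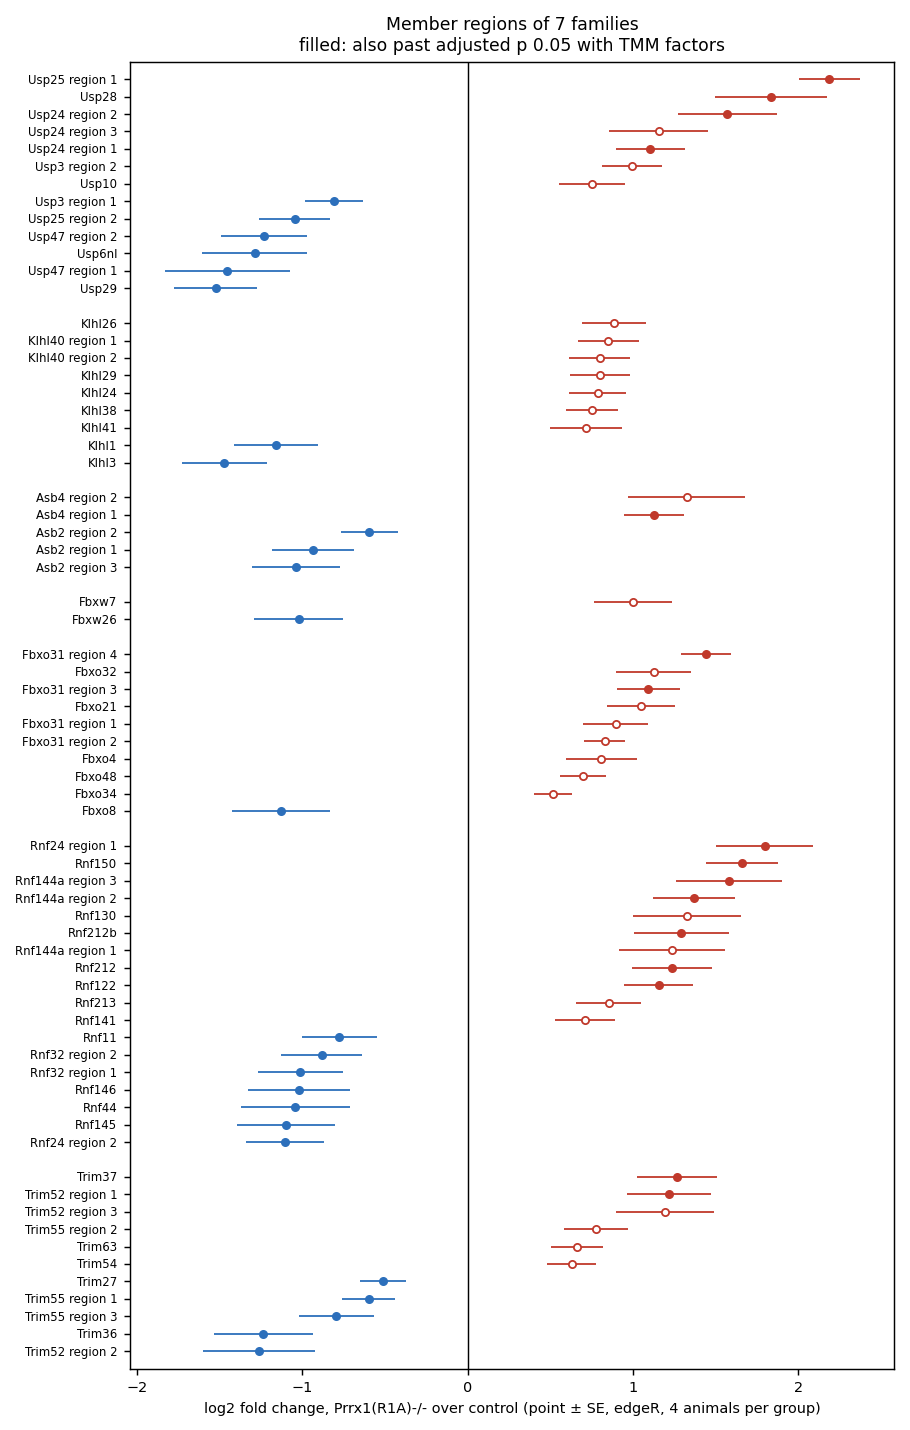
edgeR log2 fold change of the member regions of 7 families, Prrx1(R1A)-/- over control, on the authors' scale, with bars of 1 standard error over 4 and 4 animals; filled points were also called with TMM scaling. The values run from -1.52 at Usp29 to 2.19 at Usp25 region 1, and all 25 points on the lower side are filled, while many on the higher side are open.

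The MuRF ligases, RING proteins of the sarcomere encoded by Trim63 (MuRF1), Trim55 (MuRF2) and Trim54 (MuRF3), had 5 listed regions, and they did not all go the same way. The region over the Trim54 start site, chr5:31116251-31116750, had 124, 127, 134 and 152 scaled counts in controls 1 to 4 and 236, 153, 227 and 213 in Prrx1(R1A)-/- animals 1 to 4. Prrx1(R1A)-/- animal 2 came within 1 scaled count of control 4, and the others stood well above all controls. The mean rose from 134 ± 12.8 to 207 ± 37.2 (SD, n = 4 each), a log2 fold change of 0.63 ± 0.15 (SE; edgeR adjusted p = 0.000387). With TMM scaling the value was 0.03 (edgeR adjusted p = 0.852), so that on that scale no difference was seen.

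At Trim63 the region chr4:134319501-134320000 lay inside the gene, 4.63 kb past its start site. Controls had 94.2, 73.8, 71.5 and 88.8 scaled counts, and Prrx1(R1A)-/- animals had 128, 135, 135 and 123. All mutants were above all controls, in a narrow band, and the log2 fold change was 0.66 ± 0.16 (edgeR adjusted p = 0.00043; 0.07 with TMM, adjusted p = 0.704). The 5 other listed regions within 100 kb were all higher too, and lay nearest to Cnksr1, Slc30a2, Extl1 and Pdik1l. Over the whole list, 91.5% of pairs of listed regions within 100 kb had the same direction, so this was not particular to Trim63.

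Trim55 had 3 listed regions, of which the outer ones were lower and the middle one higher. Region 1, chr3:19644501-19645000, began 157 bases inside the lower-coordinate end of the gene and had 137, 154, 123 and 119 scaled counts in controls against 70.2, 101, 93.1 and 84.2 in Prrx1(R1A)-/- animals. Region 2, chr3:19663251-19663750, had 63.9, 32.8, 52.0 and 46.0 in controls against 78.6, 103, 84.8 and 84.2. Region 3, chr3:19665251-19665750, had 51.5, 43.0, 50.3 and 44.9 in controls against 36.6, 26.0, 20.6 and 27.6. The groups did not overlap at any of them, and regions 2 and 3, whose starts are 2 kb apart within the same gene, moved in opposite directions. Their log2 fold changes were -0.60 ± 0.16, 0.78 ± 0.19 and -0.79 ± 0.23 (edgeR adjusted p = 0.00111, 0.00059 and 0.00168). Region 2 was not called with TMM scaling (0.18, edgeR adjusted p = 0.414).

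Fbxo32 encodes atrogin-1, and Klhl38 is a Kelch gene of striated muscle next to it. The region nearest to Fbxo32, chr15:58258501-58259250, lay 43.6 kb from it, and the one nearest to Klhl38, chr15:58272251-58273500, lay 41.3 kb from Klhl38 and 57.9 kb from Fbxo32. Scaled counts at the Fbxo32 region were 25.7, 24.6, 25.2 and 17.5 in controls and 59.5, 59.7, 41.2 and 45.0 in Prrx1(R1A)-/- animals. At the Klhl38 region they were 80.9, 90.2, 107 and 89.9, and 168, 173, 157 and 120.5. Both regions were higher in every mutant than in any control. The log2 fold changes were 1.12 ± 0.23 and 0.75 ± 0.16 (edgeR adjusted p = 0.00012 and 0.000144), and with TMM scaling neither was called (0.53 and 0.15; edgeR adjusted p = 0.0594 and 0.404). The Fbxo32 region lay 55.6 kb from Klhl38, so each region had both genes within 60 kb and was assigned to the nearer.

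Klhl40 and Klhl41 encode Kelch proteins that stabilise thin-filament proteins of the sarcomere, and loss of either causes nemaline myopathy in humans. Klhl40 had a region 1.61 kb before its start site (chr9:121775751-121777000) and another 0.39 kb past it (chr9:121777751-121778250). The first had 83.2, 65.6, 67.8 and 41.6 scaled counts in controls and 135, 126, 102 and 113 in Prrx1(R1A)-/- animals, and the second 65.3, 53.3, 41.8 and 69 and then 93.1, 104, 103 and 95.8. Mutants lay above controls at both, with log2 fold changes of 0.85 ± 0.18 and 0.80 ± 0.18 (edgeR adjusted p = 0.000211 and 0.000343). The Klhl41 region, chr2:69669501-69670000, centred 0.37 kb before the start site, had 37.7, 51.2, 28.8 and 31.8 scaled counts in controls and 55.7, 49.3, 70.0 and 59.5 in Prrx1(R1A)-/- animals. Control 2 was above Prrx1(R1A)-/- animal 2, so the groups overlapped, and the log2 fold change was 0.72 ± 0.22 (edgeR adjusted p = 0.00286). With TMM scaling the 3 values were 0.25, 0.21 and 0.12, and none was called.

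Asb2 went the other way. Asb2 is the substrate receptor of a Cul5 ligase that degrades filamins in muscle and blood cells, and its 3 regions were all lower. The region over its start site, chr12:103338251-103338750, had 129, 117, 106 and 96.4 scaled counts in controls and 78.6, 56.3, 82.4 and 81.3 in Prrx1(R1A)-/- animals (112 ± 14.1 to 74.6 ± 12.3). All mutants were below all controls, with a log2 fold change of -0.59 ± 0.17 (edgeR adjusted p = 0.00186). Region 1, 12.1 kb past the start site, and region 3, upstream of the start site that the promoter table lists, had log2 fold changes of -0.94 ± 0.25 and -1.04 ± 0.27 (edgeR adjusted p = 0.000939 and 0.000762). Otub2, a deubiquitinase gene beside Asb2, had a lower region as well.

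Asb4, a Cul5 receptor gene best known from blood vessels and the hypothalamus, had 2 regions, both higher. Region 1, chr6:5442001-5444250, 10.5 kb from the gene, had 38.6, 45.1, 43.8 and 50.4 scaled counts in controls and 90.8, 90.9, 112 and 88.5 in Prrx1(R1A)-/- animals, with no overlap. Its log2 fold change was 1.13 ± 0.18 (edgeR adjusted p = 1.12e-05), and it was called with TMM scaling too (0.53, edgeR adjusted p = 0.0170). Pdk4, which encodes a kinase that holds back glucose oxidation, lay 39.3 kb away. Region 2, 12.5 kb from Asb4, had 13.7 ± 6.28 scaled counts in controls and 31.6 ± 10.3 in mutants. There the animals overlapped, and with TMM scaling the region was not called (0.72, edgeR adjusted p = 0.0916).

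Over a fixed list of family genes, called the muscle list, 12 of the 40 in the annotation had a listed region (30.0%, against 14.4% of all protein-coding genes). Not every gene on it is best known from striated muscle: Asb4, for example, is best known from blood vessels and the hypothalamus. The list was drawn up with earlier results known, so the share is a description. Their 19 regions were 12 higher and 7 lower, beside 66.7% and 33.3% of the whole list. Among these genes 8 had only higher regions, 2 only lower ones (Asb2 and Klhl3), and Trim55 and Usp25 had both. The 8 genes were Asb4, Fbxo32, Klhl38, Klhl40, Klhl41, Trim54, Trim63 and Usp28.

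**Figure D3:**
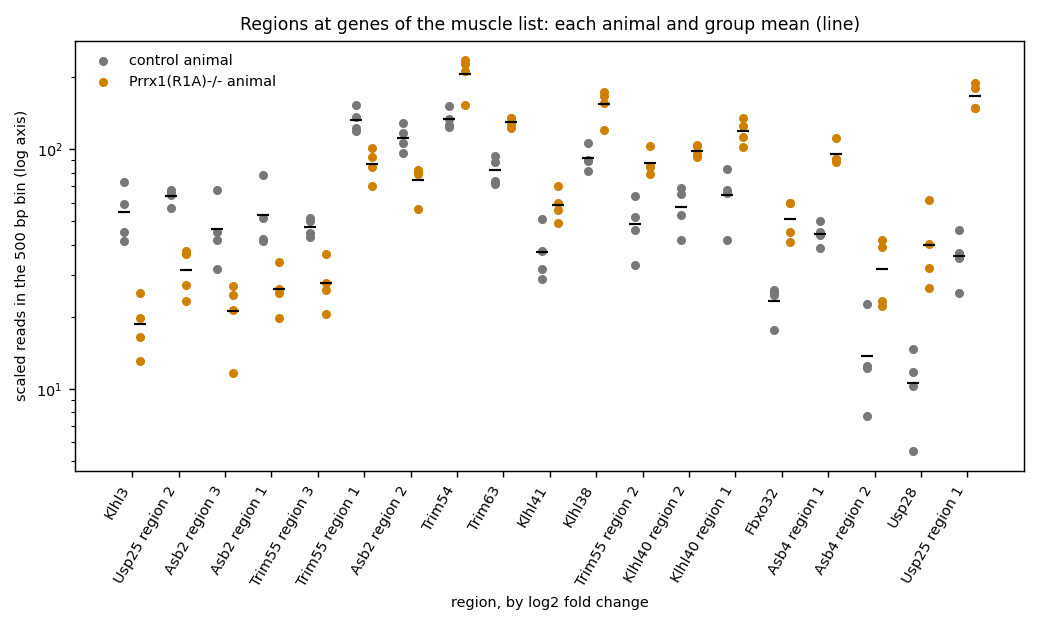
Scaled counts per animal at the regions of the muscle list, 4 control and 4 Prrx1(R1A)-/- animals, with group means. The mutants lie above the controls at Trim54, Trim63, Fbxo32, Klhl38 and Klhl40, overlap them at Klhl41, and lie below them at Asb2.

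Among the other F-box genes, Fbxo31 stood out by number: it had 4 regions, all inside the gene on chromosome 8 and all higher. Fbxo31 directs cyclin D1 to degradation after DNA damage. Region 4, chr8:121572751-121574000, 5.31 kb past the start site, had 75.9, 82.0, 60.5 and 78.9 scaled counts in controls and 187, 188, 227 and 189 in Prrx1(R1A)-/- animals. Every mutant had over 2 times the count of any control, and the log2 fold change was 1.44 ± 0.15 (edgeR adjusted p = 3.86e-08; with TMM 0.85, adjusted p = 1.48e-05). Region 2, chr8:121562001-121564000, was the most accessible, with 223, 211, 263 and 305 in controls and 441, 437, 486 and 418 in mutants. Regions 1 and 3 rose by 0.89 ± 0.20 and 1.09 ± 0.19 (edgeR adjusted p = 0.00022 and 2.79e-05), and at none of the 4 did the groups overlap. With TMM scaling regions 3 and 4 were called, and regions 1 and 2 were not (0.30 and 0.23; edgeR adjusted p = 0.195 and 0.117).

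Fbxw7, which targets cyclin E, Myc and Notch, had a region 85.1 kb away that went from 31.3 ± 10.2 to 67.6 ± 17.6 (1.00 ± 0.23, edgeR adjusted p = 0.000396; 0.40 with TMM, adjusted p = 0.145). Fbxw26 went from 52.5 ± 13.2 to 25.5 ± 10.5 with overlapping animals. Fbxo4 and Fbxo48 rose by 0.81 and 0.70 on the log2 scale, and Fbxo21 went from 43.5 ± 9.86 to 89.5 ± 20.5; with TMM scaling none of these 3 was called (0.21, 0.10 and 0.46; edgeR adjusted p = 0.397, 0.516 and 0.0609). The one lower Fbxo region was at Fbxo8, from 37.6 ± 9.20 to 17.6 ± 5.91 (-1.13 ± 0.30, edgeR adjusted p = 0.000939). Fbxo34 had the smallest higher change of all members, from 261 ± 21.8 to 375 ± 22.3 (0.52 ± 0.12), and was the one whose sign turned with TMM scaling (-0.08, edgeR adjusted p = 0.537).

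Of the Cul3 receptors, Klhl3, which brings WNK kinases to degradation and is mutated in a familial form of hypertension in humans, had the largest fall. Its region inside the gene, chr13:58045751-58046750, had 45.1, 59.4, 41.4 and 73.4 scaled counts in controls and 19.8, 25.1, 16.5 and 13.1 in Prrx1(R1A)-/- animals. All mutants were below all controls, and the log2 fold change was -1.47 ± 0.26 (edgeR adjusted p = 2.67e-05). Klhl26 went from 43.1 ± 8.49 to 78.0 ± 10.7 (0.89 ± 0.19, edgeR adjusted p = 0.000229), Klhl29 and Klhl24 rose by 0.80 ± 0.18 and 0.79 ± 0.17 on the log2 scale, and Klhl1, a neuronal gene whose region lay 428 kb away, fell by 1.16 ± 0.25 with overlapping animals. With TMM scaling Klhl26, Klhl29 and Klhl24 were not called (0.29, 0.20 and 0.19; edgeR adjusted p = 0.206, 0.334 and 0.350).

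RING finger genes of the Rnf family gave 18 regions. Rnf150, a membrane-bound RING gene of the Goliath group, had 29.4, 16.4, 23.1 and 25.2 scaled counts in controls and 67.1, 65.8, 95.5 and 84.2 in Prrx1(R1A)-/- animals inside the gene (chr8:82885251-82886000). The groups were far apart, and the log2 fold change was 1.66 ± 0.22 (edgeR adjusted p = 9.25e-07; with TMM 1.06, adjusted p = 0.000115). Rnf130, of the same group, rose by 1.32 ± 0.33, and Rnf122, from 32.3 ± 8.04 to 69.3 ± 5.23, by 1.15 ± 0.21. Rnf213, the gene of moyamoya disease in humans, went from 38.1 ± 5.92 to 67.4 ± 1.68 (0.85 ± 0.20). With TMM scaling Rnf122 was called, and Rnf130 and Rnf213 were not (0.74 and 0.26; edgeR adjusted p = 0.0616 and 0.256). Lower regions were nearest to Rnf145, which encodes a ligase of the endoplasmic reticulum that acts on cholesterol synthesis (33.7 ± 2.14 to 15.5 ± 2.36), to Rnf146, whose product degrades axin (36.2 ± 13.0 to 16.7 ± 2.46), and to Rnf11 (48.6 ± 5.35 to 29.4 ± 7.11). The remaining lower ones were at Rnf44 (-1.04 ± 0.33) and, 205 and 307 kb away, at Rnf32 (-0.88 ± 0.25 and -1.01 ± 0.26). Rnf141 rose by 0.71 ± 0.18 but was not called with TMM scaling (0.11, edgeR adjusted p = 0.583), and the meiotic genes Rnf212 and Rnf212b by 1.24 ± 0.24 and 1.29 ± 0.29.

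Rnf24 had regions in both directions. Region 1, inside the gene (chr2:131304751-131305500), had 9.65, 32.8, 22.7 and 17.5 scaled counts in controls and 44.2, 75.3, 51.9 and 95.8 in Prrx1(R1A)-/- animals. Region 2, chr2:131395251-131396250, 42.9 kb upstream, had 57.5, 49.2, 74.3 and 41.6 and then 30.5, 19.0, 26.4 and 31.9. Neither pair of groups overlapped, and the log2 fold changes were 1.80 ± 0.29 and -1.10 ± 0.24 (edgeR adjusted p = 1.21e-05 and 0.000186). Rnf144a, of the RING-between-RING ligases, had 3 regions, all higher and 115 to 323 kb from the gene; regions 1 and 3 rose by 1.24 ± 0.32 and 1.58 ± 0.32, and region 1 was not called with TMM scaling (0.64, edgeR adjusted p = 0.101). Its region 2 had 19.8, 20.5, 23.5 and 24.1 in controls against 51.9, 45.0, 46.1 and 91.4, with Prrx1(R1A)-/- animal 4 far above the rest (1.37 ± 0.25, edgeR adjusted p = 4e-05).

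Of the remaining Trim genes, Trim37, mutated in human Mulibrey nanism, had a higher region inside the gene, in a stretch that Ppm1e also covers (23.4 ± 6.44 to 57.6 ± 13.6; 1.26 ± 0.24, edgeR adjusted p = 6.88e-05). Trim27 had a lower region (200.5 ± 9.13 to 141 ± 23.3; -0.51 ± 0.14), the smallest fall of the 25. Trim52 was the nearest gene to 3 regions at 93.7, 898 and 1227 kb, of which the first and last were higher and the middle one lower; the last was not called with TMM scaling (0.59, edgeR adjusted p = 0.104). Trim36 fell by 1.24 ± 0.30 at a region 219 kb away. A region at such a distance says little of the gene it is named for.

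The deubiquitinases held the members with the largest rise and the largest fall. Usp25, which has a muscle splice form in mammals, had a region inside the gene 63.2 kb past its start site, chr16:77076751-77078000. It had 46.0, 36.9, 35.3 and 25.2 scaled counts in controls and 190.0, 180.0, 149 and 149 in Prrx1(R1A)-/- animals. The lowest mutant was over 3 times the highest control. The mean went from 35.8 ± 8.51 to 167 ± 21.0 and the log2 fold change was 2.19 ± 0.18 (edgeR adjusted p = 2.18e-09; with TMM 1.59, adjusted p = 4.32e-08). In the authors' deposited table its log2 fold change of 1.88 ranked 10 among the 3551 higher regions. Region 2 of Usp25, 377 kb away, was lower, with 66.2, 67.6, 64.6 and 57.0 in controls and 36.6, 23.4, 27.2 and 37.7 in mutants.

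Usp28, the closest relative of Usp25 and a regulator of Myc stability, had 14.7, 10.2, 11.8 and 5.48 scaled counts in controls and 40.4, 61.5, 26.4 and 31.9 in Prrx1(R1A)-/- animals at chr9:49034501-49035250. The groups did not overlap, and the log2 fold change was 1.83 ± 0.34 (edgeR adjusted p = 5.02e-05; with TMM 1.24, adjusted p = 0.00320). Usp24 had 3 higher regions, all upstream of it at 66.2, 109 and 318 kb. Usp10, a partner of stress granule proteins, rose by 0.75 ± 0.20, and Usp6nl fell by 1.29 ± 0.32. With TMM scaling Usp10 and Usp24 region 3 were not called (0.15 and 0.56; edgeR adjusted p = 0.509 and 0.118). The Usp24 region at 109 kb went from 15.7 ± 6.28 to 45.8 ± 11.2 (1.57 ± 0.30, edgeR adjusted p = 6.45e-05).

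Usp29, an imprinted gene expressed from the paternal copy, had the largest fall. Its region inside the gene, chr7:6776751-6778250, had 51.5, 82.0, 56.0 and 72.3 scaled counts in controls and 14.5, 18.2, 31.3 and 24.7 in Prrx1(R1A)-/- animals. All mutants were well below all controls, with a log2 fold change of -1.52 ± 0.25 (edgeR adjusted p = 1.38e-05). In the authors' deposited table its value of -1.18 ranked 82 among the 1776 lower regions. The imprinted gene Peg3 lay 47.0 kb away.

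Usp3, which removes ubiquitin from histone H2A, had 2 regions of opposite direction. Region 1, chr9:66514501-66515250, covered the end of Usp3 and the promoter window of Fbxl22 printed above, and had 131, 159.8, 117 and 97.5 scaled counts in controls and 80.1, 61.5, 74.1 and 68.2 in Prrx1(R1A)-/- animals. Region 2, chr9:66611251-66612250, 18.4 kb upstream of Usp3, had 40.5, 47.1, 45.1 and 50.4 in controls and 98.4, 75.3, 93.9 and 92.9 in mutants. Neither pair of groups overlapped. The log2 fold changes were -0.81 ± 0.17 and 1.00 ± 0.18 (edgeR adjusted p = 0.000187 and 4.3e-05), and region 2 was not called with TMM scaling (0.40, edgeR adjusted p = 0.0712).

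**Figure D4:**
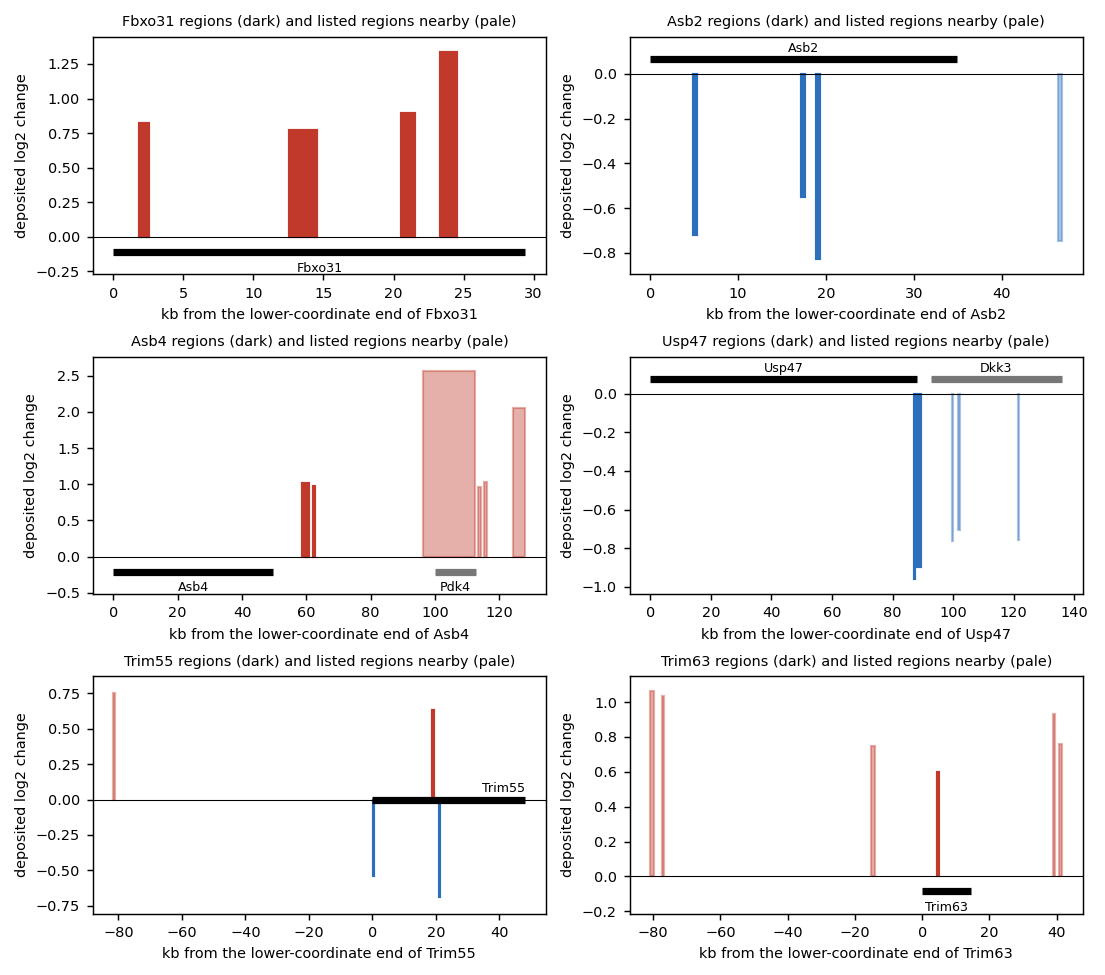
Listed regions at 6 genes, in kb from the lower-coordinate end of the gene (bar), with the authors' deposited log2 fold change as height; dark columns are regions assigned to the gene and pale ones are other listed regions nearby. All 4 regions of Fbxo31 rose and all 3 of Asb2 fell, Trim55 holds regions of both directions 2 kb apart, and the regions of Asb4 and Usp47 lie beside further listed regions at Pdk4 and Dkk3.

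Usp47, a relative of the deubiquitinase Usp7, had 2 lower regions at its end that lay 5.02 and 3.77 kb from Dkk3. Region 2 had 47.4, 41.0, 71.1 and 113 scaled counts in controls and 28.2, 29.4, 24.7 and 36.3 in Prrx1(R1A)-/- animals, with control 4 far above the other controls. Its log2 fold change was -1.23 ± 0.26 (edgeR adjusted p = 0.000164), and 3 further lower regions nearby were nearest to Dkk3, which encodes a secreted protein of the Dickkopf family.

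Over the 69 regions, 38 lay inside their gene (55.1%, against 60.9% of the list), 53 within 50 kb (76.8%, against 85.0%), and 9 over 200 kb away. Of the 13 member genes with 2 or more regions, 5 had higher regions alone, 3 lower regions alone and 5 a mixture; in the list at large these numbers were 562, 218 and 257 of 1037 genes. Another listed region lay within 100 kb of 36 members (52.2%, against 64.6%). They formed 84 pairs of a member and a neighbour, with 59 distinct neighbouring regions, some of them members themselves, and in 73 pairs the direction was the same (86.9%, against 91.5%).

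**Figure D5:**
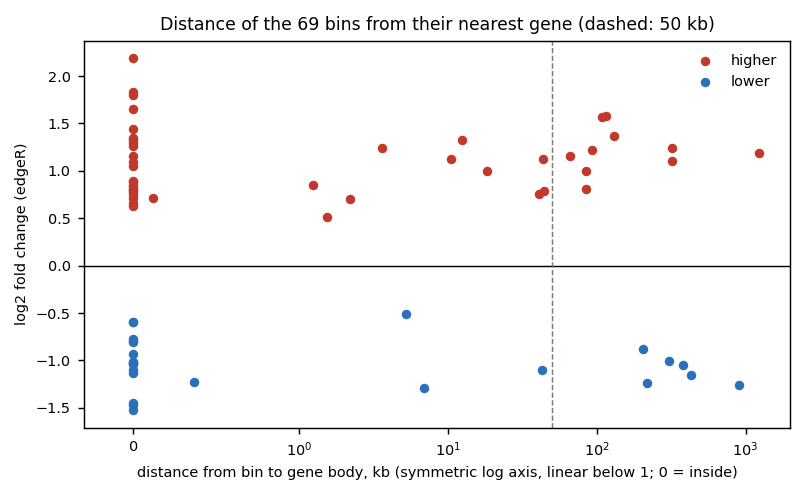
edgeR log2 fold change of the 69 regions against the distance from the nearest family gene, with regions inside a gene at 0. Inside the genes there were 38 regions, and 16 lay over 50 kb away, in both directions.

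Beyond the 8 families, the other steps of the pathway are described by counts. The genes for ubiquitin and its activating enzymes had 4 regions, 1 higher and 3 lower, at 3 of 12 genes. The higher one was at Ubb, a polyubiquitin gene, which went from 46.0 ± 8.35 to 74.4 ± 9.69 scaled counts (0.74 ± 0.19, edgeR adjusted p = 0.000857; with TMM adjusted p = 0.510). Conjugating enzyme genes had 3 higher and 2 lower at 5 of 37 genes, with Ube2v1, which helps build chains for signalling, going from 63.2 ± 4.96 to 151 ± 10.5 (1.28 ± 0.16, edgeR adjusted p = 3.63e-07). Cullin and adaptor genes had 2 higher regions, both at Cand1, the exchange factor for these ligases. Among 58 other ligase genes, 17 had 29 regions, 19 higher and 10 lower: Cblb had 2 higher ones, and Mib1, a ligase of the Notch pathway, had 6 lower and 1 higher. Other deubiquitinase genes had 4 higher and 4 lower at 5 of 21 genes. Genes with proteasome symbols (Psm), not all of them for subunits, had 3 higher and 1 lower at 3 of 51. The higher ones were 2 at Psmb1 and 1 that lay 100 kb from Psmg1, and the lower one was nearest to Psmd3.

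Among marker genes of cell types, those of cardiomyocytes had 23 higher and 52 lower regions at 9 of 13 genes. Fibroblast markers had 2 higher and 0 lower, immune markers 3 and 0, neural and glial markers 2 and 0, endothelial markers 1 and 3, smooth muscle and pericyte markers 4 and 2, adipocyte markers 2 and 2, and the epicardial markers 1 higher. Of the cardiomyocyte regions, Atp2a2 (20 lower, 1 higher) and Ryr2 (15 lower, 6 higher) held many of the lower ones, and Ttn had 14 higher and 0 lower. Over the whole list 66.7% of regions were higher and 33.3% lower, and no difference between lists was tested. The part of cell composition in these results was not tested, and a marker without a listed region says nothing of its accessibility.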

How the data were processed

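Per the labels' protocols, PCM1-stained atrial nuclei were sorted, treated with the Illumina transposase and read as pairs of 150 bp. The submitters' processing notes name BWA, bedtools, DESeq2 and the build mm10, without versions or roles; the read shift for the transposase cut, duplicate handling and filters are not stated in any source used. Per the file headers, the authors' deposited table lists only called regions, each with 1 bin of 500 bp. The deposited read counts were handled as estimated counts, because 17 cells hold 0.1, which was rounded to 0. The authors' deposited log2 fold change had its sign turned to Prrx1(R1A)-/- over control, and the deposited adjusted p-values were used to rank regions and, in 1 alternative, as a stricter threshold. The authors' deposited signal (per group, the geometric mean over libraries) was used to set the scale.

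Repeat libraries were summed per animal. Within a group, median-ratio factors were used; between groups, the offset of 0.142 came from regressing the deposited log2 fold change on the log2 ratio of group means (slope 0.874, 1432 regions with both means at least 50). edgeR 4.0.16 in R 4.3.3 fitted quasi-likelihood models over the whole table (threshold 0.05), after filterByExpr removed 1 region, not a member; the script was tested on simulated counts. DESeq2 1.42.0, TMM factors, no filter, the first library of each animal only, the replicate number as a block and leaving out each animal were alternatives. The animals are taken as separate mice from the protocol, which pools atria per individual.

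Genes were taken from RefSeq (GRCm38) by the nearest gene body. Genes named were those with 2 or more regions, the member of each family and direction with the smallest deposited p, the 5 highest and 5 lowest changes, the muscle list, and regions within 1 kb of a gene end or over a promoter; remaining members are given briefly so that all are accounted for. The members and lists were chosen with earlier results of these data known. Some results are not reported here.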

Additional observations from a re-analysis of the deposited data

Results flagged for a closer look

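In 9 of the 138 groups of 4 animals (69 regions, 2 genotypes), 1 animal stood far from the other 3 by Dixon's criterion, and chance gives about 1 in 20. Among Prrx1(R1A)-/- animals, the lowest were animal 2 at Asb2 region 2, with 56.3 scaled counts against 78.6 to 82.4 in the others, and animal 4 at Rnf146, with 13.1 against 17.5 to 18.2. The highest were animal 3 at Asb4 region 1, with 112 against 88.5 to 90.9, and at Fbxo31 region 4, with 227 against 187 to 189. Animal 4 was highest at Rnf144a region 2, with 91.4 against 45.0 to 51.9, and animal 2 at Rnf145, with 19.0 against 14.0 to 14.5. Among controls, animal 4 was lowest at Fbxo32, with 17.5 against 24.6 to 25.7, and highest at Rnf141, with 84.4 against 56.1 to 60.5. Control 1 was highest at Rnf11, with 56.5 against 45.1 to 46.7. The cause of these single values was not tested.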

How the results depend on the processing

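With TMM factors, edgeR called 17 of the 44 higher member regions (38.6%, against 27.8% of all listed higher regions) and all 25 lower ones. Over the whole list it called 1776 regions lower, as many as were listed lower. The animals separated at 35 member regions (10 higher, 25 lower) in place of 64, and Fbxo34 turned to -0.08. How many regions of the whole list separated on that scale was not counted. TMM centres on unchanged regions, and this list holds only called ones, so the loss of higher calls follows from the scale. Of the 69 fold changes, 42 kept their direction and call under TMM and 26 kept only their direction. All 69 kept both under DESeq2, no filter, the first library of each animal only, and each animal left out in turn. In each of these, 44 were called higher and 25 lower. The whole list was not counted under these settings, and on the authors' scale edgeR called all 5326 regions it tested. The replicate block gave 44 higher and 25 lower. Apart from TMM, all these settings kept the main scale, whose offset between groups came from the authors' deposited fold changes. The regions had also been selected on these libraries, so the agreement was largely set in advance and is no independent test. Deviations of same-numbered animals (1 to 4) correlated at 0.265, 0.041, -0.036 and -0.001. Animals of different number ran from -0.152 to 0.081, so the value for number 1 was the highest of all pairs. Whether same-numbered animals were handled together was not tested. The share of higher regions, 63.8%, was 73.0% at a deposited adjusted p under 0.01 (27 of 37; all listed 71.5%), 64.2% within 50 kb (34 of 53), 63.8% by nearest gene to the merged region and 67.3% with 1 region per gene (33 of 49; all 68.3%). Without Usp6nl, Rnf212 and Rnf212b, a choice made after seeing the data, it was 63.6%. The list holds only called regions, so whether other ubiquitin genes changed cannot be read from it.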

Other observations

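A list of 17 autophagy genes and FOXO targets of muscle wasting had 15 regions at 9 genes, 13 higher and 2 lower, against 66.7% and 33.3% of the whole list. The 4 mutants were above the 4 controls at 11 of them, below at 2, and overlapped at 2. Over the whole list, 90.6% of listed higher and 88.8% of listed lower regions were separated. Fkbp5, which encodes a co-chaperone of the glucocorticoid receptor, had 5 higher regions, the largest change being a log2 fold change of 1.81 ± 0.37 in edgeR (SE, 4 and 4 animals). Mstn, which encodes the muscle growth inhibitor myostatin, went from 13.3 ± 1.66 to 37.4 ± 4.87 (1.47 ± 0.30), and Gabarapl1, an autophagosome protein gene, from 32.4 ± 10.3 to 77.5 ± 10.9 (1.16 ± 0.21). Foxo1, Foxo3 and Klf15 had higher regions as well. Both regions of Atg7, an enzyme of autophagosome formation, were lower, from 57.4 ± 7.29 to 29.6 ± 4.89 and from 41.8 ± 9.31 to 17.4 ± 3.01. With TMM scaling 6 of the 15 regions were called, at Atg7, Fkbp5, Gabarapl1 and Mstn, and both lower Atg7 regions were among them. Over the whole list 27.8% of listed higher regions were called on that scale. As many regions were called lower (1776) as were listed lower.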
